A study of Mus musculus with 2 samples.

Results

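The mitochondrial carrier genes, those whose symbol begins with Slc25a, were examined for binding of the acetyltransferase EP300 in newborn mouse liver. All such genes that GENCODE release M21 annotates as protein-coding were taken, which gave 47 of 21938 protein-coding genes. The data were EP300 chromatin immunoprecipitation (ChIP-seq) peak lists from whole liver of B6NCrl mice at an age of 0 days, with no transgene, deletion or treatment named in the labels. There was 1 group of 2 replicates. By their labels the replicates come from 1 biosample and 1 donor. Their spread is therefore one between libraries, and neither a standard deviation over animals nor a test between conditions can be had. Positions are on mouse build mm10. The lists hold peaks without read counts, so the depth behind each value is unknown.

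Mitochondrial carriers are small proteins that mostly sit in the inner mitochondrial membrane, where they swap or import metabolites that the membrane otherwise holds back. In the liver of a newborn, carriers for ornithine, aspartate and glutamate serve the urea cycle, and those for acylcarnitine, citrate and coenzyme A serve fat oxidation and fat synthesis. The organ still makes red cells at birth, and developing red cells need carriers that bring iron and glycine into mitochondria for heme. EP300 acetylates histones and is recruited by transcription factors to promoters and enhancers, so its peaks mark candidate regulatory elements. A peak near a gene does not show that the gene is expressed or that the peak acts on it.

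The sequences around 8 summits (a summit is the base of highest signal in a peak) are shown. They were chosen across roles because results below turn on them, and are the strongest peak that is nearest to the gene itself for 7 carrier genes and the second such peak for Slc25a38. They are not the 8 strongest of the family. Each is the GRCm38 plus strand (RefSeq assembly, the same as mm10) from 50 bases before to 50 bases after the summit, and capitals mark the motifs that were found. Motifs were searched on both strands within 50 bases of the summit. A GATA motif was any of AGATAA, the variant AGATAG, the variant TGATAA and the variant TGATAG. A FOXA motif was TGTTTAC, the variant TGTTTGC or the variant TATTTAC, and a KLF1 motif was CCACACCC. A composite was CTG, then 8 to 10 free bases, then a GATA motif, which is therefore also counted as one. An ETS motif was CCGGAAG, an SP motif GGGCGGGG, an NRF1 motif CGCATGCG and a YY1 motif AGATGGCGG. A CEBP motif was TTGCGCAA, the variant TTGCACAA, the variant TTGTGCAA, the variant TTGCATCA or the variant TTGCAACA. An HNF4 motif was CAAAGTCCA, the variant AGGTCAAAG or the variant CAAAGGTCA. An NRF2 and BACH motif was TGACTCAGC or the variant TGAGTCAGC.
Slc25a38, first intron peak, chr9:120115753-120115853: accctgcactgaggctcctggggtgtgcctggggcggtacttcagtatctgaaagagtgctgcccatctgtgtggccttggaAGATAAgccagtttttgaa
Slc25a38, second intron peak, chr9:120112520-120112620: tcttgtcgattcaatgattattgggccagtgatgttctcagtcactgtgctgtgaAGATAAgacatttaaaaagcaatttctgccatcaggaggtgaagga
Slc25a39, upstream peak, chr11:102408569-102408669: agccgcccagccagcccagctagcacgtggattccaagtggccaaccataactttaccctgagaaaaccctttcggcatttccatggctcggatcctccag
Slc25a13, upstream peak, chr6:6219846-6219946: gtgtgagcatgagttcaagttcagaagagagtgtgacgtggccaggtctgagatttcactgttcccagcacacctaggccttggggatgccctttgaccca
Slc25a47, intron peak, chr12:108850372-108850472: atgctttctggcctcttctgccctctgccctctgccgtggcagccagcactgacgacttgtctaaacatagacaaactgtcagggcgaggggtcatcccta
Slc25a42, intron peak, chr8:70201527-70201627: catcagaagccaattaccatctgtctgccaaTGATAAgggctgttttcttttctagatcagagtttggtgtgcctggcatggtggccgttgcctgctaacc
Slc25a51, upstream peak, chr4:45413821-45413921: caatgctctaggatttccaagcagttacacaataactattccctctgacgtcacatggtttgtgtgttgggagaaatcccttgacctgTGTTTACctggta
Slc25a21, upstream peak, chr12:57197830-57197930: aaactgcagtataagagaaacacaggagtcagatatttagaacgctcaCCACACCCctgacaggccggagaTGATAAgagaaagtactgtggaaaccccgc

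The tissue label was set beside marker genes, which were chosen with earlier results of these data known, so this is no independent check. A summit lay within 10 kb of 6 of 6 hepatocyte markers and 7 of 7 erythroid markers, against 0 of 6 markers of muscle, nerve and pancreas. The share over all protein-coding genes outside the family was 40.9%. Within 50 kb, 3 of the 6 markers of other tissues had a summit, beside 65.9% of those genes. Newborn liver is a mixture, and a site bound in few cells cannot be told apart from a site bound weakly in many. The list used is the one the authors thresholded by the irreproducible discovery rate (IDR) under the name optimal, with 26883 peaks. Of these, 26844 lie on chromosomes 1 to 19, X and Y and were used. Its signal value, given by the authors on a scale that is not stated, ran from 7.32 to 633 with a median of 38.3.

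An EP300 summit lay within 10 kb of an annotated transcript start for 32 of the 47 carrier genes, or 68.1% (95% exact Clopper-Pearson interval 52.9 to 80.9%). The share was 40.9% among the 21891 other protein-coding genes and 47.9% among 338 other solute carrier (Slc) genes. Within 50 kb, 40 carrier genes had a summit, or 85.1% (71.7 to 93.8%), against 65.9% of all other genes and 73.4% of other Slc genes. At 1 kb the counts were 17 carrier genes (36.2%) against 23.8% of other genes, and at 100 kb they were 41 (87.2%) against 76.5%. The share of carrier genes thus lay above that of all other genes at each of these distances. However, the intervals at 1 kb (22.7 to 51.5%) and 100 kb (74.3 to 95.2%) contain the shares of other genes. The interval at 50 kb contains the share of other Slc genes. The intervals count genes only, and neighbouring members share peaks, so the genes are not independent. The median carrier gene had 4 annotated transcript starts and the median other gene 3, which widens the search, and the part this plays was not tested beyond using 1 start per gene (31 of 47, 66.0%, against 35.3%).

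**Figure D1:**
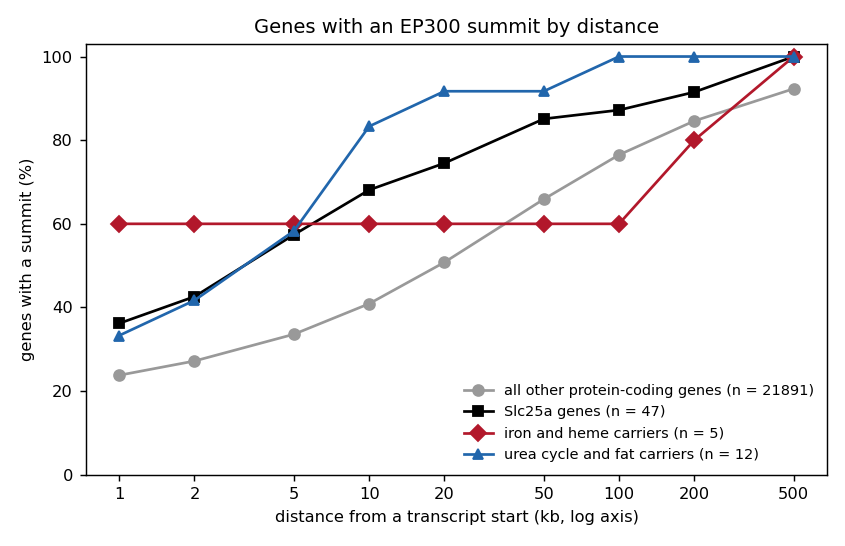
Percent of genes with an EP300 summit (vertical axis) within a distance of any annotated transcript start (horizontal axis, kb, log scale), for the 47 carrier genes, the 21891 other protein-coding genes, 5 iron and heme carriers and 12 urea cycle and fat carriers. The black line of all carrier genes lies above the grey line throughout, at 68.1% against 40.9% at 10 kb, while the iron and heme line stays at 60% from 1 to 100 kb.

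The height of the peaks differed less than their presence. Over the 32 carrier genes with a summit within 10 kb, the strongest signal per gene had a median of 59.4, with quartiles of 35.1 and 89.0. Over the 8960 other genes with a summit there, the median was 50.7, with quartiles of 33.7 and 89.2. A strongest signal of 100 or more was found at 7 of these carrier genes (21.9%) and at 21.6% of these other genes. The upper parts of both distributions were therefore nearly level, and the difference in medians was 0.23 on the log2 scale. The strongest peak had the carrier gene itself as its nearest gene in 24 of 32 cases (75%), against 74.7% for other genes. It was a promoter peak, with its summit at most 1 kb from the start of some protein-coding gene, in 17 of 32 cases (53.1%), against 51.8%.

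**Figure D2:**
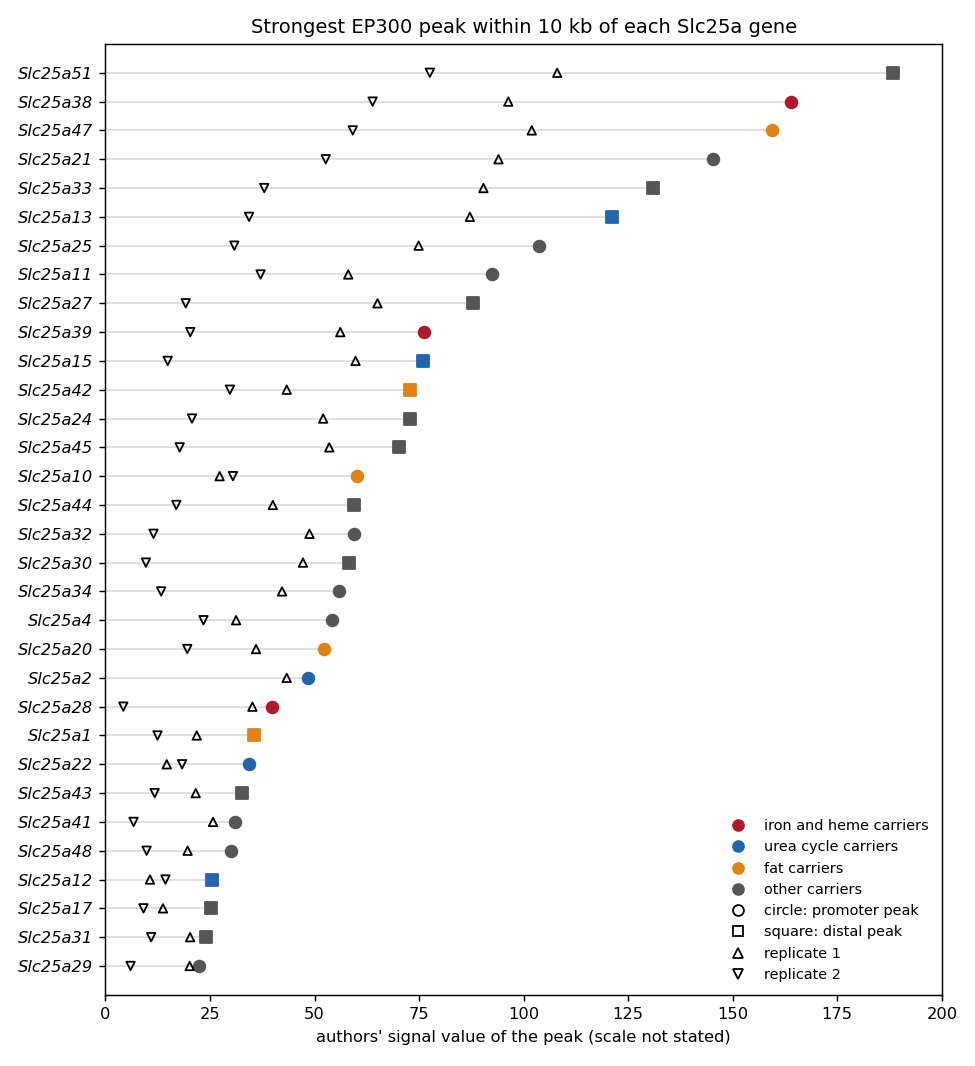
The strongest peak within 10 kb of each of the 32 carrier genes that have one, by the authors' signal value in the optimal list (filled symbols, coloured by role, circles for promoter and squares for distal peaks) and in each replicate list (open triangles). Slc25a51 is highest at 188 and Slc25a29 lowest at 22.4, and the replicate 1 value exceeds that of replicate 2 for all but 3 of the genes that have both.

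Among the 5 iron and heme carriers, Slc25a38 had the highest peaks within 10 kb. SLC25A38 brings glycine, the starting amino acid of heme, into mitochondria, and its loss causes a sideroblastic anaemia. The gene (chromosome 9, 120110374 to 120124504, plus strand) had 3 summits within 50 kb, all in its introns and all nearer to it than to any other gene. The highest, 0.814 kb downstream of a start, had a signal of 164 (rank 1723 of 26883), with 96.3 in replicate 1 and 63.9 in replicate 2. The next, 2.146 kb downstream of a start, had a signal of 148, with 94.6 and 54.5 in the replicates. Both peaks were thus high in both libraries, and the first ranked 1990 and 1494 among the 300000 peaks of each replicate's full list. Their sequences above each hold AGATAA, and in the second it is part of the CTG and GATA composite.

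SLC25A39 carries glutathione into mitochondria, and its gene (chromosome 11, 102402985 to 102407946, minus strand) is used strongly in red cell precursors. Its own peak, 0.673 kb upstream, had a signal of 76.1, with 56.1 in replicate 1 and 20.3 in replicate 2, and its sequence above held none of the motifs searched. Higher peaks stood farther off. At 29.1, 40.7 and 39.3 kb from a start of Slc25a39 lay peaks of 306, 285 and 273, and all 3 have Slc4a1 as their nearest gene. Slc4a1 encodes band 3, the anion exchanger of the red cell membrane, which is a solute carrier but no member of this family. Which of the neighbouring genes these peaks serve was not tested.

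Slc25a28 encodes mitoferrin 2, an iron importer found in many tissues. Its strongest peak, 0.303 kb upstream, reached 39.8, near the median of all peaks, and was uneven between libraries, at 35.1 in replicate 1 and 4.27 in replicate 2. A peak of 32.7 that holds a GATA motif lay 4.838 kb upstream, with 16.4 and 15.02 in the replicates. Slc25a40, which encodes a relative of SLC25A39, had its nearest summit 216 kb away. Its best peak within 10 kb in the full list of replicate 1 had a signal of 8.59 and that in replicate 2 8.42, and neither is in the optimal list.

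Slc25a37, which encodes mitoferrin 1, the main iron importer of developing red cells, had no summit within 100 kb, and its nearest was 144 kb away. The gene (chromosome 14, 69241848 to 69285112, minus strand) has its start inside a stretch of 440 kb (69251354 to 69691255) in which neither the pooled list nor either full replicate list, each of 300000 peaks, holds a single peak. It is the 12th longest of 144 such stretches of at least 100 kb with under 1% of unknown bases. Of the 100-base words within 10 kb of the Slc25a37 5′ end, 0% occur only once in the reference genome. Every one of them has a second copy nearby, and 99.1% of the words in the whole stretch do. The stretch holds the starts of 7 protein-coding genes (Entpd4, Entpd4b, Gm16867, Gm27179, Loxl2, Slc25a37 and Synb), and 0 of them has a summit within 10 kb. As the stretch was defined by its lack of peaks, this count largely follows from that choice and adds no separate observation.

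The stretch was cut at a peak on each side, so a peak at its edge within Slc25a37 follows from how it was drawn. The end of Slc25a37 that lies outside the stretch, 9.507 kb long, holds no words with a second copy nearby (0%). Copies elsewhere in the genome were not counted for this end. Within the gene, replicate 1 had 3 peaks with a highest signal of 7.64, replicate 2 had 4 with 5.22, and the optimal list had 0. Among the other protein-coding genes, 905 (4.13%) had fewer than 50% unique words around their start, and 5 of those (0.552%) had a summit within 10 kb, against 42.7% of the other 20986. Slc25a37 was the only carrier gene below 50%. Without it, 32 of 46 carrier genes (69.6%) had a summit within 10 kb. The labels do not say how reads with more than 1 match were handled, so a lack of EP300 at Slc25a37 cannot be told apart from a lack of countable reads.

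**Figure D3:**
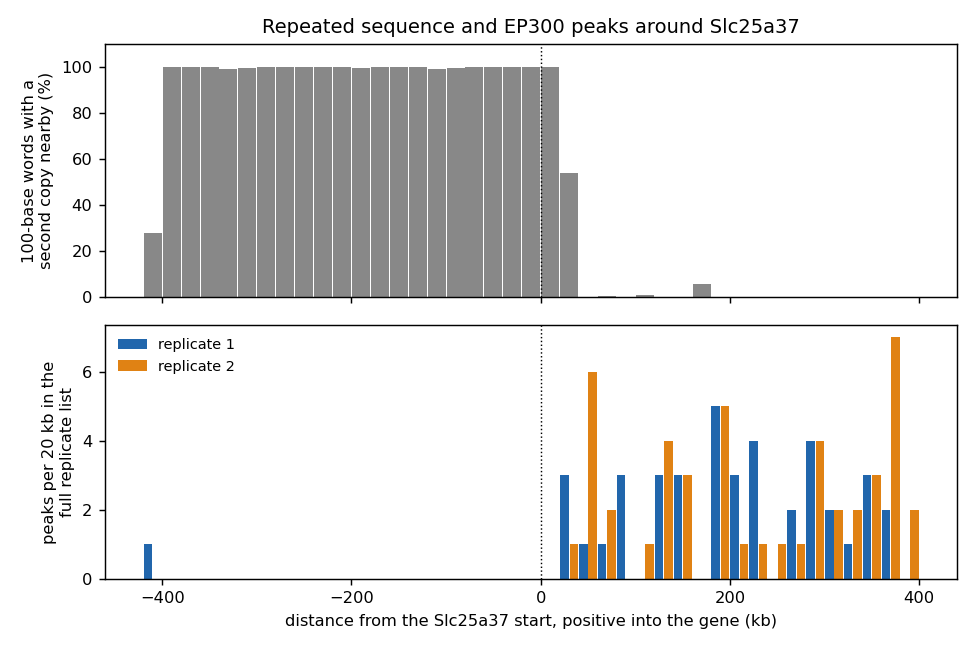
Share of 100-base words with a second copy nearby (upper panel, %) and number of peaks in the full replicate lists (lower panel, per 20 kb), by distance from the Slc25a37 start (kb, positive into the gene and beyond). Repeated sequence fills the bins from the gene's first part through the 440 kb stretch before it. The peaks of both replicates lie outside that stretch, which was defined by its lack of peaks.

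The genes that work beside the iron and heme carriers had higher peaks than the carriers themselves, in values set side by side without a test. Of 14 heme and iron genes listed as partners, 13 had a summit within 10 kb (40.9% of all genes outside the family), with a median strongest signal of 273. Fech, whose product inserts iron into the porphyrin ring, reached 470, and Alas2, the first enzyme of red cell heme synthesis, reached 390. Abcb10, a mitochondrial transporter that binds mitoferrin 1, reached 461. The strongest carrier of this role, Slc25a38 at 164, thus stood below the partners' median.

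Among the 6 urea cycle carriers, 5 had a summit within 10 kb (40.9% of all other protein-coding genes) and all 6 within 50 kb (65.9%). Slc25a13 had the highest peak of these within 10 kb. It encodes citrin, the liver's aspartate and glutamate exchanger, whose loss causes citrullinaemia. The gene (chromosome 6, 6041218 to 6217173, minus strand) had 9 summits within 50 kb, and for all 9 it is the nearest gene. The highest, 2.723 kb upstream, had a signal of 121, with 87.2 in replicate 1 and 34.4 in replicate 2. Its next peaks were 59.3 and 57.7, both in introns. None of the motifs was in the upstream window printed above, and 3 of the intron peaks held a FOXA motif.

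Slc25a15 encodes ORC1, which exchanges ornithine and citrulline across the inner membrane and is the carrier on which the urea cycle turns. Its strongest peak, 2.197 kb upstream, had a signal of 76.1, with 59.8 in replicate 1 and 14.9 in replicate 2. A second, of 39.4 in an intron, held a FOXA motif. Slc25a2, a close relative that also carries ornithine, had a single summit within 50 kb, of 48.5. That summit sits at the start of Taf7, 5.483 kb upstream of Slc25a2, and had a signal of 43.3 in replicate 1 and no overlapping peak in replicate 2. Slc25a12, the aspartate and glutamate exchanger of muscle and brain, had 2 weaker intron peaks. The first, of 25.4 at 5.787 kb downstream of a start, had 10.7 in replicate 1 and 14.3 in replicate 2, and the second, of 19.8, had 13.99 and 4.29.

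The glutamate carriers were low near their own starts. Slc25a22 had a peak of 26.6 at its start, with 22.1 in replicate 1 and 5.36 in replicate 2. Its strongest within 10 kb, of 34.3, lay at the start of Pidd1, 6.156 kb upstream, with 14.7 and 18.3. The peak of 141 within 50 kb of Slc25a22 lies at Taldo1, an enzyme gene of the pentose phosphate pathway. Slc25a18 had no summit within 10 kb, and its nearest, at 11.7 kb in its own intron, reached 22.2. Of 10 urea cycle partners, 7 had a summit within 10 kb (40.9% of all genes outside the family) and 10 within 50 kb (65.9%). Their median strongest signal within 10 kb was 130, against 48.5 for the 5 urea cycle carriers. Ass1, which joins citrulline to aspartate, reached 163, and Cps1, which makes carbamoyl phosphate for the cycle, reached 134. Other partners went the other way. Arg1 (35.6) and Nags (41.5) stood below the carriers' median, and Otc, Oat and Glud1 had no summit within 10 kb.

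Among the 6 carriers assigned to fat metabolism, 5 had a summit within 10 kb (40.9% of all other protein-coding genes). Slc25a47, a carrier expressed almost only in liver and whose substrate is debated, had the highest peak. The gene (chromosome 12, 108836046 to 108856815, plus strand) had 5 summits within 10 kb. The highest, in its own intron 0.707 kb upstream of an inner start, had a signal of 159 (rank 1805), with 102 in replicate 1 and 59.1 in replicate 2. A second of 56.5 lay 4.153 kb downstream of a start. Slc25a47 neighbours Slc25a29, and all 8 peaks within 50 kb of Slc25a47 also lie within 50 kb of Slc25a29.

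Slc25a42, which brings coenzyme A into mitochondria, had a peak of 72.8 at 6.967 kb upstream, nearest to Armc6, with 43.4 in replicate 1 and 29.8 in replicate 2. A peak of 154 in its own intron lay 10.679 kb from a start, just outside the 10 kb limit, with 96.4 in replicate 1 and 53.8 in replicate 2. Its sequence above holds TGATAA as part of the CTG and GATA composite. Slc25a16, the other carrier linked to coenzyme A, had its nearest summit 81.6 kb away. In the full replicate lists its best peaks within 10 kb had signals of 14.9 and 8.85.

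Slc25a20 encodes the carnitine and acylcarnitine carrier, through which long-chain fatty acids enter mitochondria for oxidation. Its single summit within 10 kb lay at its start, 0.054 kb downstream, with a signal of 52.1, and 36.01 in replicate 1 and 19.6 in replicate 2. Slc25a1, the citrate exporter that feeds fat synthesis, had peaks of 35.4 (5.358 kb downstream of a start) and 31.0 (5.577 kb upstream), of which the first was higher in replicate 1 (21.8 against 12.5) and the second in replicate 2 (19.4 against 11.6). Slc25a10, the dicarboxylate carrier, had a peak of 60.1 at the start of Mrpl12, 7.231 kb upstream, with 27.3 in replicate 1 and 30.5 in replicate 2, and none for which it is the nearest gene. Of 13 partners in fat oxidation and citrate use, 11 had a summit within 10 kb (40.9% of all genes outside the family), with a median of 94.9. Cpt1a, which makes acylcarnitine and sets the pace of fat oxidation, reached 162.

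**Figure D4:**
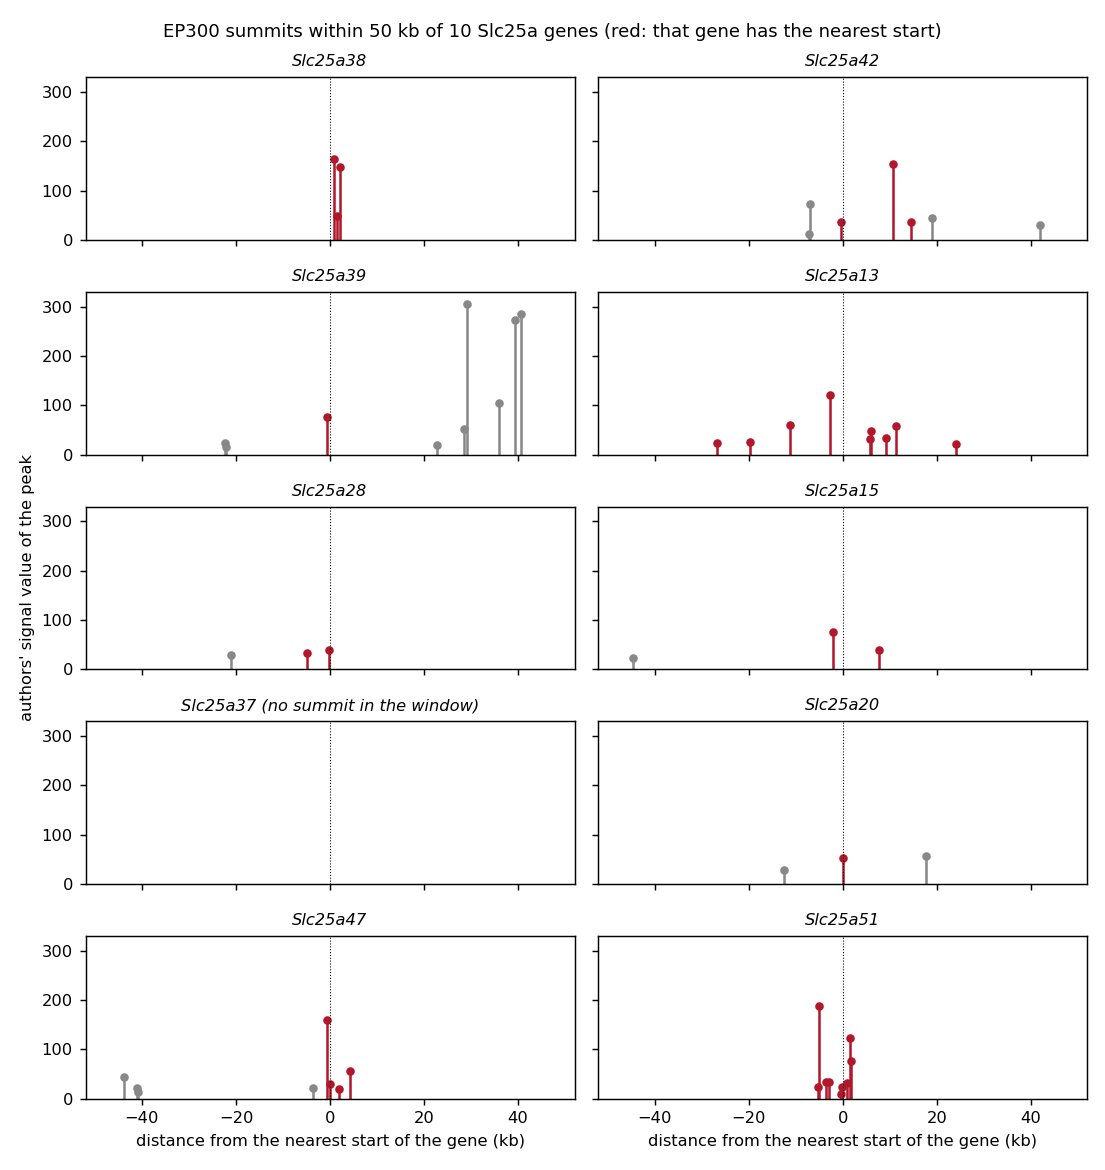
EP300 summits within 50 kb of 10 carrier genes, by distance from the nearest start of the gene (horizontal axis, kb, negative upstream) and the authors' signal value (vertical axis). Red summits have that gene as the nearest and grey ones another gene. All summits of Slc25a38, Slc25a13 and Slc25a51 are red, the peaks of 306, 285 and 273 near Slc25a39 are grey, and Slc25a37 has none.

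The iron and heme carriers were set against the urea cycle and fat carriers by their strongest peak within 50 kb. A peak was found for 3 of 5 iron and heme carriers, with signals of 39.8 (Slc25a28), 164 (Slc25a38) and 306 (near Slc25a39). One was found for 11 of 12 urea cycle and fat carriers, and for 65.9% of all other protein-coding genes. The signals of those 11 carriers ranged from 33.4 (Slc25a18) to 159 (Slc25a47) with a median of 60.1. The medians differed by 1.45 on the log2 scale, but the groups overlapped. When each peak counted only for its nearest gene, the medians were 76.1 and 52.1, a difference of 0.54. Within 10 kb they were 76.1 and 56.1, a difference of 0.44. The value for Slc25a39 moved from 306 to 76.1 under both of these settings. With 3 genes in a group no test was made.

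The carriers of cofactors and nucleotides held the highest peak of the family within 10 kb. Slc25a51 encodes the importer of NAD into mitochondria. The gene (chromosome 4, 45395923 to 45408766, minus strand) had 9 summits within 10 kb, and it is the nearest gene for all 9. The highest, 5.105 kb upstream, had a signal of 188 (rank 1345), with 108 in replicate 1 and 77.6 in replicate 2. The next, of 124 and 77.4, lay within the gene. The upstream sequence printed above holds TGTTTAC, and the peak of 77.4 holds both a GATA and a FOXA motif.

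Slc25a33, which imports pyrimidine nucleotides, also had 9 summits within 50 kb, all nearest to it. Its peaks formed an upstream series, with 131 at 6.474 kb, 104.6 at 24.6 kb and 108 at 39.4 kb. The first had 90.4 in replicate 1 and 38.0 in replicate 2. Slc25a32, a folate and flavin carrier, had 59.3 at a start that lies beside that of Dcaf13, and Slc25a17, a carrier of peroxisomes, had 25.1. No summit lay within 10 kb of Slc25a26 (S-adenosylmethionine, nearest 108 kb) or Slc25a36 (pyrimidine nucleotides, 325 kb). This role thus held both the highest of the family's peaks within 10 kb and the gene farthest from any summit.

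Both keto acid carriers had a summit within 1 kb (23.8% of all other protein-coding genes). Slc25a21, which carries oxodicarboxylates of lysine and tryptophan breakdown, had 145 at 0.408 kb upstream, with 94.0 in replicate 1 and 52.7 in replicate 2. Its sequence above holds TGATAA and CCACACCC, and further peaks of 126 and 87.6 in its intron each hold a GATA motif. Slc25a11, the malate and oxoglutarate exchanger of the malate-aspartate shuttle, had 92.4 at 0.121 kb, with 58.1 and 37.1 in the replicates. That peak is slightly nearer to the start of Rnf167, and none of the 9 summits within 50 kb of Slc25a11 has it as the nearest gene.

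Of 8 carriers for ADP and ATP, phosphate, or ATP-Mg, 5 had a summit within 10 kb (40.9% of all other protein-coding genes) and all 8 within 50 kb (65.9%). Slc25a25, an ATP-Mg and phosphate carrier regulated by calcium, was highest within 10 kb with 104 at 0.77 kb upstream of a start and 101 in an intron at another start, and had 14 summits within 50 kb. The first of these peaks had 74.9 in replicate 1 and 30.8 in replicate 2. Slc25a24, of the same subfamily, had 72.8 in its intron 2.634 kb from a start, with 52.1 and 20.7. The weaker ones were Slc25a41 with 31.0, nearest to Khsrp, and Slc25a31, the testis ADP and ATP exchanger, with 24.0. Slc25a4, the exchanger of heart and muscle, had 54.2 at its start, with 31.2 and 23.4 in the replicates.

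The phosphate carrier Slc25a3, which every respiring cell needs, had its nearest summit 46.6 kb away. Its best peaks within 10 kb in the full replicate lists had signals of 18.2 and 9.88. Slc25a5, the ADP and ATP exchanger of dividing cells, had its nearest summit at 10.7 kb, and the best within 10 kb in the full lists were 10.9 and 7.17. Slc25a23, an ATP-Mg carrier, had its nearest at 20.6 kb. Those for Slc25a23 were 20.4 and 4.83. All 3 thus had peaks within 10 kb in the full lists that are not in the optimal list. This does not set them apart. The full lists hold 300000 peaks each, and every carrier gene but Slc25a37 and Slc25a54 has a peak within 10 kb in both. The share among other genes was not counted.

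Among the 3 genes related to uncoupling proteins, Slc25a27 had 87.9 in an intron of Cyp39a1, a bile acid enzyme gene that is also nearest to it, 4.928 kb upstream of Slc25a27, with 65.05 and 19.2 in the replicates. Slc25a30 had 58.3 and 12 summits within 50 kb, while the nearest summit to Slc25a14 lay 243 kb away. Of the amino acid carriers, Slc25a44 (branched-chain amino acids) had 59.4 and Slc25a29 (basic amino acids) 22.4. The genes of other or unassigned role gave 70.2 at Slc25a45 (in its intron 5.488 kb downstream of a start, with 53.5 in replicate 1 and 17.8 in replicate 2), 55.8 at Slc25a34, 32.8 at Slc25a43 and 29.9 at Slc25a48. Slc25a45 had 16 summits within 50 kb, the most of any member, of which 1 has it as the nearest gene. Slc25a35 (44.2 kb), Slc25a46 (25.02 kb), Slc25a53 (251 kb) and Slc25a54 (45.3 kb) had none within 10 kb.

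Around the limit of 10 kb, Slc25a10 at 7.231 kb and Slc25a41 at 9.383 kb were the last inside, and Slc25a5 at 10.734 kb and Slc25a18 at 11.679 kb the first outside. Around 50 kb, Slc25a3 at 46.6 kb was the last inside and Slc25a16 at 81.6 kb the first outside. Family members under other symbols were looked at beside them. Ucp2, an uncoupling protein of many tissues, had 25.9 at its start, and 284 lay 5.647 kb from Ucp3, its neighbour. Ucp1, the uncoupling protein of brown fat, had none within 50 kb. Mtch2, an insertase of the outer membrane, had 66.0, and Mtch1 23.3.

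The 188 distinct peaks within 50 kb of a carrier gene were then compared by place. The 72 promoter peaks had a median signal of 40.2 (8.92 to 285), and the 116 distal peaks had one of 38.0 (8.79 to 306). Among all peaks the medians were 37.2 over 6294 promoter peaks and 38.6 over 20550 distal peaks. Where a carrier gene was the nearest gene, 23 promoter peaks had a median of 39.8 and 66 distal peaks one of 38.3. Promoter and distal peaks near carrier genes thus differed by 0.08 on the log2 scale, with wide overlap. In replicate 1 the overlapping peaks had medians of 29.99 (promoter) and 28.6 (distal). In replicate 2 the order was the other way, with 11.5 over 65 promoter peaks and 14.6 over 113 distal peaks. With each replicate's own top peaks in place of the optimal list both orders turned, to a log2 difference of -0.11 for replicate 1 and 0.10 for replicate 2, so the order depends on which peaks are taken. Of the 188 peaks, 17 lay within 50 kb of 2 members, which are neighbours (Slc25a29 with Slc25a47, Slc25a23 with Slc25a41, Slc25a5 with Slc25a43, and Slc25a24 with Slc25a54).

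All 188 peaks overlapped a peak of replicate 1, 178 overlapped one of replicate 2, and 141 were in the conservative IDR list. Over the 178 peaks, Spearman's rho between the replicates' signals was 0.69 and Pearson's r of the log2 values was 0.75. These are descriptions over peaks of the same libraries, some of which overlap the same replicate peak. Replicate 1 values were higher, with a median log2 ratio of 0.97 and an SD of 0.71 over peaks. For 29 of the 47 carrier genes a summit within 10 kb was found in the optimal and the conservative lists and in the equally long top lists of both replicates, against 32.5% of other genes. Slc25a2, Slc25a12 and Slc25a31 were in the optimal list but not in all 4, and 9 members were in none: Slc25a5, Slc25a14, Slc25a18, Slc25a26, Slc25a35, Slc25a36, Slc25a37, Slc25a53 and Slc25a54.

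**Figure D5:**
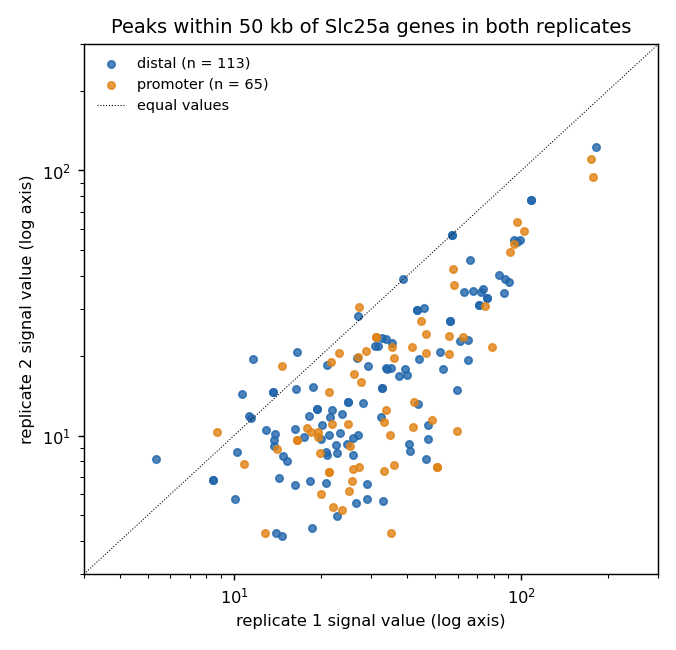
Signal of the 178 peaks near carrier genes that overlap a peak in both replicate lists, replicate 1 against replicate 2 (both axes logarithmic, authors' signal value), with 65 promoter peaks in orange and 113 distal peaks in blue. Most points lie below the dotted line of equal values, and both kinds of peak cover the same range.

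Over the same 188 peaks, 52 (27.7%) held a GATA motif within 50 bases of the summit, against 40.3% of all 26844 peaks. The share was 22.2% in promoter peaks and 31% in distal peaks of the carrier genes. Promoter peaks made up 72 of the 188 peaks and 6294 of all 26844. Motif shares by class were not counted over all peaks, so the part of this mix in the shares here was not tested. The composite of CTG and GATA was in 7 peaks (3.72%), against 9.77% of all peaks. FOXA motifs were in 16 (8.51%), against 7.97%, and 15 of the 16 were distal. KLF1 motifs were in 6 (3.19%), against 1.54%. ETS motifs were in 6 peaks (3.19%), against 2.76%, all at promoters. CEBP motifs were in 3 (1.6%), against 3.35%, HNF4 motifs in 3 (1.6%), against 1.71%, and SP motifs in 3 (1.6%), against 2.05%. YY1 motifs were in 2 (1.06%), against 0.142%, NRF2 and BACH motifs in 2 (1.06%), against 1.36%, and NRF1 motifs in 0, against 0.0894%.

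The motifs in each role's own peaks are few, and are given as counts without a test. Of the 6 peaks whose nearest gene is an iron or heme carrier, 3 held a GATA motif, namely both of the high peaks of Slc25a38 and the peak 4.838 kb upstream of Slc25a28, and 0 held a FOXA motif. Of the 25 peaks nearest to a urea cycle or fat carrier, 3 (12%) held a GATA motif and 6 (24%) a FOXA motif, beside 40.3% and 7.97% of all peaks. The FOXA motifs were at Slc25a13 (3 peaks, of which 2 overlap), Slc25a15, Slc25a1 and Slc25a42. The median GC content of these windows was 50.5% near carrier genes and 47.5% over all peaks, and its part in these shares was not tested. A motif match describes letters only and does not show that a factor binds there.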

How the data were processed

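The labels give EP300 ChIP-seq of newborn mouse liver in 2 replicates of 1 biosample. Of the 5 deposited mm10 peak lists, the optimal IDR list was the main one. Its deposited signal per peak is the authors' own and nearly always that of their pooled list, while the labels and headers do not state its scale, the peak caller, the aligner or the IDR threshold. Depth is unknown, as the lists hold no counts.

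A summit was the list's start plus its summit offset. Distances ran to any transcript start of a protein-coding gene in GENCODE M21 (GRCm38). A promoter peak had its summit at most 1 kb from such a start, other peaks were distal, and replicate values are those of the highest overlapping peak (1 base or more). Motifs were matched within 50 bases of a summit. Words of 36 and 100 bases were counted over chromosomes 1 to 19, X and Y. Scripts were tested on simulated data (Python 3.11.15, pandas 2.3.3, numpy 2.4.6, scipy 1.17.1).

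The members, role lists, partners, markers and motifs were chosen with earlier results of these data known. Every member is counted and all but 1, whose own values are not reported here, are named, with signal, distance and replicate values of the strongest peak within 10 kb for the iron and heme, urea cycle and fat carriers and the 15 highest. No test was made, since there is 1 group.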

Additional observations from a re-analysis of the deposited data

How the results depend on the processing

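The count of carrier genes with a summit within 10 kb (32) was 34 to 35 when either replicate was left out and 17 within 1 kb, and it stayed within 1.5 times under the other 8 settings tried (22 to 32). The count within 50 kb (40) ranged from 29 to 41 over all settings, with 40 to 41 when a replicate was left out. The log2 difference in strongest signal between carrier and other genes (0.23) was 0.41 with distal peaks only, 0.048 over the stronger 50% of peaks, and 0.14 to 0.32 when a replicate was left out. The difference between promoter and distal peaks near carrier genes (0.08) turned to -0.0489 with the conservative list, -0.0528 with promoters of 5 kb, -0.0937 over the stronger 50% of peaks and -0.11 without replicate 2, while it was 0.10 without replicate 1, so its sign is not settled. The difference between iron and heme carriers and urea cycle and fat carriers (1.45) was 0.54 with the nearest gene only, 0.44 within 10 kb, 0.42 within 100 kb, and 0.87 to 1.15 when a replicate was left out. The causes of these shifts were not tested. Starts of protein-coding transcripts only, added after seeing the data, kept all 5 results within these ranges. Slc25a37 was also left out of the iron and heme carriers, but it has no peak within 50 kb, so this could not change their median. No paired analysis was possible because there is 1 group. The unknown depth limits what an absent peak shows.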
